A study of Mus musculus with 27 samples.

Results

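The 10 genes described here bring amino acids into B cells, make or break them down, or answer a shortage of them through the transcription factor ATF4. The list was chosen by their measured TPM in the 3 groups described below. Its members (Bcat1, Slc7a3, Slc7a5, Slc3a2, Slc1a5, Slc7a11, Cth, Asns, Atf4 and Ddit3) were all found in a table of 30735 genes. The study sequenced RNA of B220-purified B cells, B220 being a surface antigen of B cells, from 27 mouse samples. 19 samples were malignant B cells from c-myc Igh transgenic mice, in which a Myc transgene is tied to the immunoglobulin heavy chain locus. Of these lymphomas 12 came from lung, 4 from mesenteric lymph nodes and 3 from peripheral lymph nodes, and the labels name 3 lines, hv (7 lymphomas), cr (7) and co (4), whose meaning they do not give. For 1 further lung lymphoma the title says hv but the description CO. 4 samples were non-malignant splenic B cells treated for 2 days with lipopolysaccharide (LPS), a bacterial molecule that makes B cells divide, and 4 were untreated non-malignant splenic B cells, called resting here. Each of these sets held 1 sample of wt, cr, co and hv mice, so 3 of the 4 LPS samples and 3 of the 4 resting samples carried the c-myc Igh transgene too, and the wt ones did not. No lymphoma came from spleen, so organ and malignancy cannot be told apart. No age is given in the labels. The 4 resting samples differ in genotype, as do the 4 LPS samples, so within each group they came from different mice. Nothing says whether LPS and resting samples of a genotype share a mouse, or whether lymphomas of a line came from separate mice. P-values cover the spread of these samples, which holds genotype differences in the LPS and resting groups and may be technical within lymphoma lines. Because the levels in the 3 groups chose the genes, differences of these 10 genes between the groups are given as a description with no test, and tests of the 10 genes were run on lines, sites and variation among lymphomas. Cell type markers and pathway lists, chosen with earlier results of these data known, were also tested between the groups.

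Cells take up large neutral amino acids through a pair of proteins, the SLC7A5 transporter and its SLC3A2 chaperone, while SLC1A5 brings in glutamine. When uncharged tRNAs accumulate or the endoplasmic reticulum is under stress, kinases phosphorylate the initiation factor eIF2, most translation slows, and the Atf4 messenger is translated more, so ATF4 activity need not follow the level of its mRNA. ATF4 pairs with C/EBP proteins on a composite DNA element and turns on transporters, amino acid enzymes and aminoacyl-tRNA synthetases, and in lasting stress also Ddit3 (CHOP). Activated B cells build protein at a high rate, and this gene set is known for its use in lymphocyte growth. 6 of the 10 genes had an entry in the RefSeq promoter table (GRCm38.p6, 7 promoters of 250 bases before to 50 after the start site): Bcat1, Slc3a2, Slc7a11, Asns, Atf4 and Ddit3. The letters TGATGNAA, a form of the C/EBP-ATF element, were searched on both strands and occurred in 3.97% of all 32851 promoters. Counted by gene, they occurred in 4.51% of all 27025 genes and in 2 of these 6, Asns and Slc7a11. The E-box CACGTG, the element bound by MYC, occurred in none of the 7 promoters and in 7.15% of all promoters. The Asns window lies at chr6:7693214-7693243, minus strand. Its match starts 23 bases upstream of the RefSeq start site and lies 22 bases inside the gene's 5′ end as the deposited table gives it. The Slc7a11 window lies at chr3:50443633-50443699, minus strand, and holds 2 matches in opposite directions, 66 and 47 bases upstream of the RefSeq start site. These windows are shown because the other 4 genes' promoters lack these letters. Capitals mark the matches.
Asns: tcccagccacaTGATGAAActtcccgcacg
Slc7a11: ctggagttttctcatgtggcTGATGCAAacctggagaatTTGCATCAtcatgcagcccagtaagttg

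Levels are TPM, a relative transcript abundance corrected for length and scaled to a fixed total, summed over the transcripts of each gene. Libraries held 11500000 to 32000000 read pairs (median 21500000), as recovered from the table. 4 libraries gave more than 1% of their TPM to the repeat-like gene Gm10800, namely LPS cr (18.6%), resting wt (3.65%), the mesenteric node cr lymphoma T6 (3.08%) and LPS hv (2.70%). All 9 B-cell markers were present in each group, with summed levels of 1351 to 3893 TPM in lymphomas, 1069 to 2170 TPM in LPS samples and 2766 to 5199 TPM in resting samples. Of these, 8 were lower in LPS and 3 lower in lymphoma than in resting samples, and 3 were higher in lymphoma than in LPS samples (limma, adjusted p under 0.05). The 6 plasma cell markers summed to 132 to 636 TPM in lymphomas, 565 to 715 TPM in LPS samples and 274 to 482 TPM in resting samples. Of these, 4 were higher in LPS and 2 lower in lymphoma than in resting samples, and 3 were lower in lymphoma than in LPS samples. Erythroid genes summed to 16.4 to 1132 TPM in lymphomas, 175 to 2218 TPM in LPS samples and 11750 to 112522 TPM in resting samples, and all 9 measured ones were lower both in LPS and in lymphoma samples than in resting samples (limma, adjusted p under 0.05). Macrophage genes summed to 12.4 to 369.7 TPM in lymphomas, 7.20 to 59.0 TPM in LPS samples and 164 to 920.0 TPM in resting samples, with 7 of 11 lower in LPS and 8 of 11 lower in lymphoma samples than in resting samples. Over all genes tested, 25.2% were higher and 33.0% lower in LPS than in resting samples. In lymphoma against resting samples these shares were 14.5% and 17.4%, and in lymphoma against LPS samples 5.27% and 8.56%. None of the B-cell, plasma cell, erythroid or macrophage markers was at 0 in a whole group, and their part in the differences described here was not tested. The 7 lung epithelium markers summed to 511 TPM in the peripheral node hv lymphoma T15 and 50 TPM in the mesenteric node cr lymphoma T1, against 0.228 to 24.8 TPM in the 12 lung lymphomas. Lymphoma results are therefore also given without T15 where that ended a call. In these bulk samples, fewer cells of a type and less RNA per cell cannot be told apart.

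In LPS samples 5 of the 10 genes, Bcat1, Slc7a3, Slc7a5, Cth and Asns, were above every resting sample, and Ddit3 was below every resting sample. Among all 11999 genes tested, 22.8% lay above and 29.5% below all resting samples in this way, and 58.2% passed limma's test at an adjusted p under 0.05. In lymphomas 1 of the 10 genes, Bcat1, was above every resting sample, where 4.00% of all genes lay above and 4.92% below them, and 31.9% passed the test. 3 of the 10, Slc7a3, Cth and Asns, were below every LPS sample in all lymphomas, where 2.05% of all genes lay below and 1.29% above all LPS samples, and 13.8% passed the test. All 10 genes passed the filter on low values against LPS samples, and Slc7a3 did not pass it between lymphoma and resting samples. Slc7a3 and Cth passed the filter between LPS and resting samples through their LPS values alone. Slc7a3 also needed its LPS values to pass between lymphoma and LPS samples. Cth passed between lymphoma and resting samples through its lymphoma values alone. Since these values chose the genes, nothing is read from the shares. Log2 fold changes (log2FC, first-named group minus second, with standard error, SE) are of TPM + 1, which understates the change of low genes.

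**Figure D1:**
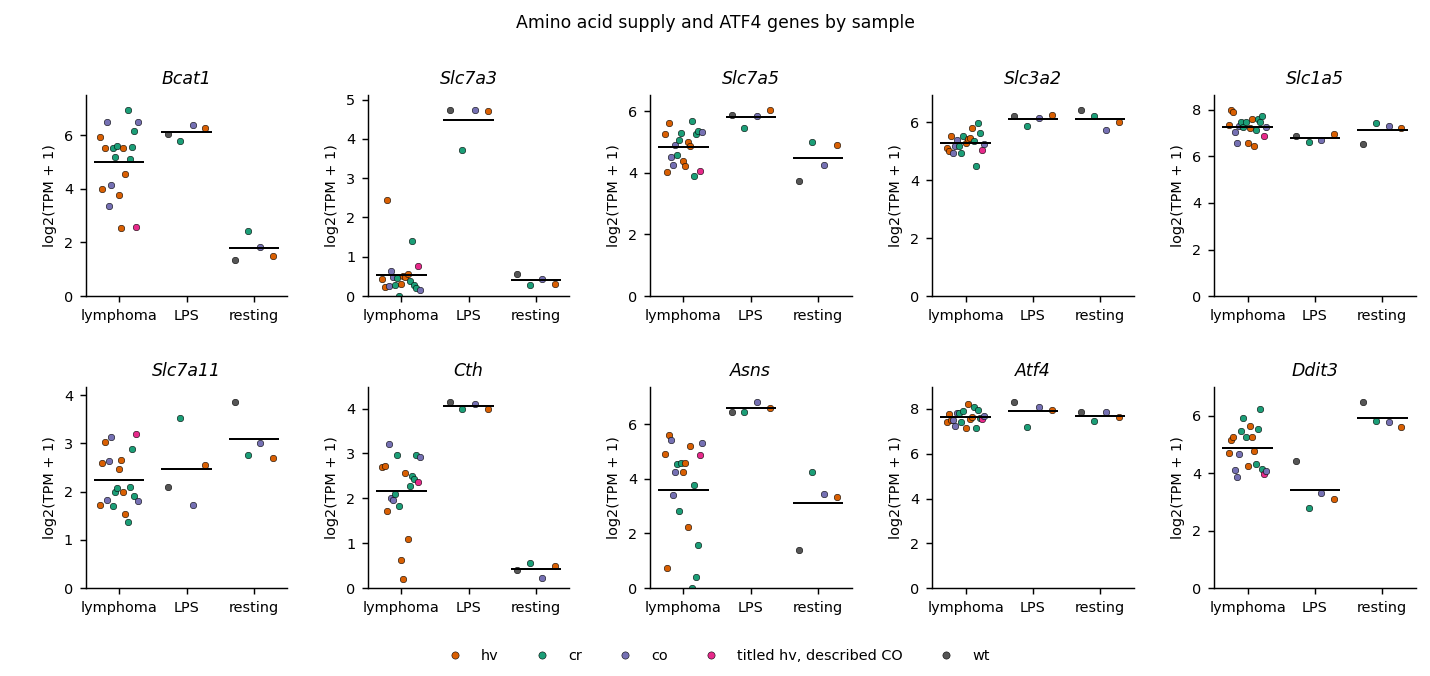
Levels of the 10 genes as log2(TPM + 1) in 19 lymphoma, 4 LPS and 4 resting samples; points are samples coloured by line or genotype, and bars are group means. Bcat1, Slc7a3, Slc7a5, Cth and Asns sit higher in all LPS samples than in all resting samples, and Asns in lymphomas spreads between 0 and 47.8 TPM.

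Slc7a5, the transporter of leucine and other large neutral amino acids (chr8:121881150-121907694, minus strand, GRCm38), was at 57.2 (wt), 42.7 (cr), 56.8 (co) and 65.4 TPM (hv) in LPS samples, against 12.3 (wt), 31.1 (cr), 18 (co) and 28.7 TPM (hv) in resting samples. The 2 groups did not overlap, and the gap was widest in wt and narrowest in cr. Macrophage markers of the resting samples had the same order as Slc7a5, with sums of 164 (wt), 920 (cr), 305 (co) and 779 TPM (hv). The erythroid sum was also lowest in wt, and LPS cr was the library with 18.6% Gm10800. The part of these in the gap was not tested. The log2FC of LPS minus resting was 1.34 ± 0.27 (SE, n = 4 each). Lymphomas lay between 13.9 and 50.9 TPM with a median of 28.9 TPM, so 17 of 19 were below every LPS sample and 9 of 19 were above every resting sample. Its log2FC was 0.35 ± 0.30 against resting and −0.98 ± 0.28 against LPS samples.

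Slc3a2, the heavy chain that carries SLC7A5 and other light chains to the membrane (chr19:8706882-8723369, minus strand), did not follow its partner. It was at 74.5 (wt), 57.6 (cr), 70.1 (co) and 75.6 TPM (hv) in LPS samples, against 86.1 (wt), 73.8 (cr), 52.5 (co) and 64.0 TPM (hv) in resting samples, and these ranges overlapped. The log2FC was 0.02 ± 0.19, and its sign changed between settings of the processing (−0.12 to 0.20). In lymphomas it ran from 21.3 to 62.8 TPM with a median of 38.1 TPM. 17 of 19 lymphomas were below every resting sample and 18 of 19 were below every LPS sample, and the log2FC was −0.81 ± 0.19 against resting and −0.84 ± 0.19 against LPS samples. The ratio of Slc7a5 to Slc3a2 TPM had a median of 0.710 (0.418 to 1.27) in lymphomas and 0.789 (0.741 to 0.865) in LPS samples. In resting samples the median was 0.382 (0.143 to 0.448), a range that overlapped that of lymphomas and not that of LPS samples.

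Slc1a5, the glutamine transporter ASCT2 (chr7:16781346-16798274, plus strand), gave different answers for the gene and for its coding transcript. Summed over its 7 transcripts it was at 118 (wt), 97.6 (cr), 103 (co) and 123 TPM (hv) in LPS samples, against 91.1 (wt), 172 (cr), 155 (co) and 150.0 TPM (hv) in resting samples, with a log2FC of −0.33 ± 0.21. The ranges overlapped because the wt resting sample was the lowest of all 8. That sample also had the lowest erythroid sum of the resting samples, 11750 TPM against 56685 to 112522 TPM, and its part in the result was not tested. The largest part of the gene's TPM came from Slc1a5-202, a retained-intron transcript that codes for no protein, with 42.8% of the TPM in LPS and 58.7% in resting samples. The 1 transcript annotated as coding, Slc1a5-201, made up 28.9% of the gene's TPM in LPS and 11.3% in resting samples. Its coordinates as deposited differ from those in the annotation that gave the coding label (GENCODE M21). On that transcript LPS samples held 28.6 (wt), 25.6 (cr), 34.2 (co) and 39.3 TPM (hv), against 13.6 (wt), 17 (cr), 18.3 (co) and 15.4 TPM (hv) in resting samples. Thus the coding transcript was above every resting sample in all 4 LPS samples, a difference of 0.94 on the log2 scale, while the gene sum was lower. In lymphomas the gene sum ran from 85.8 to 258 TPM with a median of 159 TPM, and the coding transcript from 8.74 to 71.6 TPM with a median of 30 TPM. 17 of 19 lymphomas held more of the coding transcript than any resting sample, and 1, the lymphoma of unclear line, held less. The log2FC of lymphoma minus resting was 0.16 ± 0.23 for the gene, with a sign that changed between settings (−0.05 to 0.28), and 1.01 for the coding transcript. Against LPS samples 15 of 19 lymphomas held a higher gene sum than all 4, with a log2FC of 0.49 ± 0.22. On the coding transcript this difference was 0.07, with 9 of 19 lymphomas above and 6 below all LPS samples. This split by transcript was chosen after the values were seen. It rests on how kallisto divides reads among overlapping transcripts, and in libraries of total RNA unspliced RNA also counts toward retained introns.

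Slc7a3, a transporter of arginine and lysine (chrX:101079210-101086020, minus strand), was close to the detection limit outside LPS samples. It was at 25.5 (wt), 12.2 (cr), 25.9 (co) and 25.3 TPM (hv) in LPS samples, against 0.466 (wt), 0.226 (cr), 0.361 (co) and 0.242 TPM (hv) in resting samples. The groups were far apart, and the log2FC was 4.08 ± 0.24. In lymphomas it ran from 0 to 4.48 TPM with a median of 0.353 TPM, below every LPS sample in all 19, with a log2FC of −3.94 ± 0.30. 1 lung cr lymphoma (T14) was listed at 0, where 3 read pairs would have given 0.0610 TPM. By kallisto's split, Slc7a3-201 held 63.7% of the gene's TPM in LPS samples and was at 0 in all resting samples, where Slc7a3-203 held 74.9%. In resting samples 3 read pairs would have given 0.0607 to 0.0773 TPM, so the split there rests on few reads. A change of main transcript is therefore not shown. Its relative Slc7a1, the broadly expressed arginine transporter, was present in all groups, and the ratio of Slc7a3 to Slc7a1 had a median of 0.0127 in lymphomas, 0.710 in LPS samples and 0.0155 in resting samples.

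Slc7a11, the cystine and glutamate exchanger that also needs SLC3A2 (chr3:49892526-50443614, minus strand), was at 3.28 (wt), 10.6 (cr), 2.28 (co) and 4.84 TPM (hv) in LPS samples, against 13.6 (wt), 5.77 (cr), 7.04 (co) and 5.48 TPM (hv) in resting samples. These ranges overlapped, and the log2FC was −0.61 ± 0.40. Lymphomas ran from 1.59 to 8.17 TPM with a median of 3.22 TPM, and 15 of 19 were below every resting sample, with a log2FC of −0.84 ± 0.31. Against LPS samples the log2FC was −0.23 ± 0.33, and its sign changed between settings (−0.48 to 0.30). Little of this signal was coding. The retained-intron transcript Slc7a11-202 held 89.4% of it in lymphomas, 80.2% in LPS samples and 91.1% in resting samples. The full coding transcript Slc7a11-201 averaged 0.0625 TPM in lymphomas, 0.528 ± 0.245 TPM in LPS samples and 0.124 ± 0.031 TPM in resting samples (SD, n = 4 each for LPS and resting). With coding transcripts alone, LPS samples held 0.240 (wt), 0.839 (cr), 0.512 (co) and 0.518 TPM (hv), against 0.123 (wt), 0.164 (cr), 0.0882 (co) and 0.122 TPM (hv) in resting samples, so all 4 LPS samples were above all resting samples while the gene sum was lower in 3 of the 4 genotypes.

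**Figure D2:**
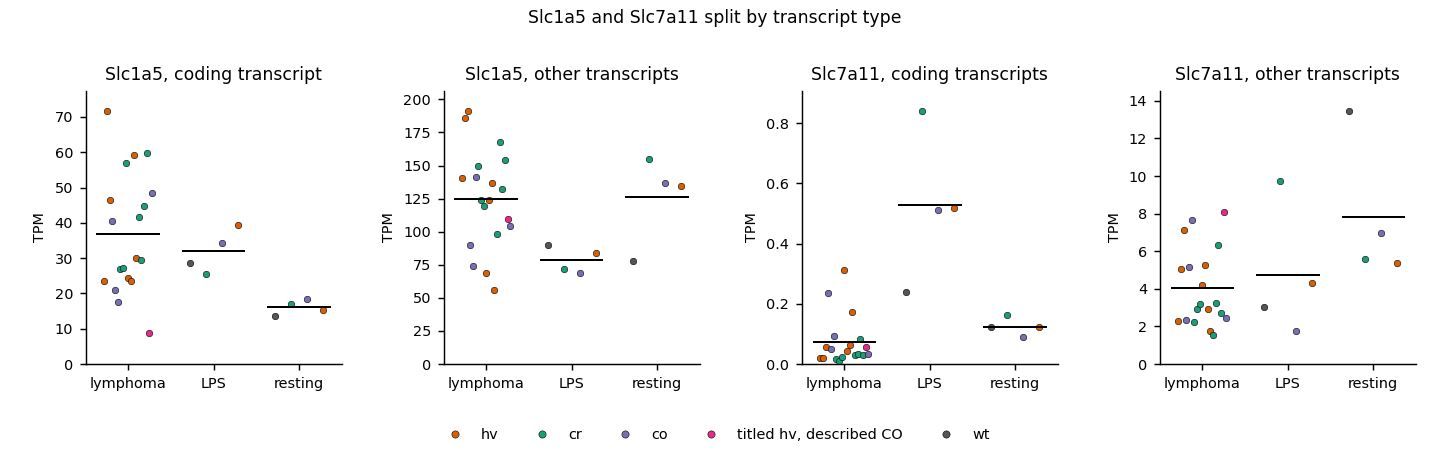
TPM of Slc1a5 and Slc7a11 split into transcripts annotated as protein coding and all other transcripts, in lymphoma, LPS and resting samples; points are samples and bars are group means. The coding part of both genes is higher in every LPS sample than in every resting sample, whereas the non-coding part is not.

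Bcat1, the cytosolic aminotransferase that starts the breakdown of leucine, isoleucine and valine (chr6:144993835-145076184, minus strand), was far higher in all LPS samples than in resting samples. It was at 65.5 (wt), 54.4 (cr), 81.9 (co) and 76.8 TPM (hv) in LPS samples, against 1.57 (wt), 4.39 (cr), 2.57 (co) and 1.85 TPM (hv) in resting samples, a log2FC of 4.34 ± 0.24. In lymphomas it ran from 4.76 to 124 TPM with a median of 44.9 TPM. All 19 lymphomas were above every resting sample, with a log2FC of 3.22 ± 0.63. 14 of 19 lymphomas were below every LPS sample and 3 were above all of them, with a log2FC of −1.13 ± 0.62. The coding transcript Bcat1-203 held 66.9% of the TPM in lymphomas, 79.8% in LPS samples and 35.3% in resting samples. Bcat2, the mitochondrial enzyme for the same reaction, had medians of 16.3 TPM in lymphomas, 18.7 TPM in LPS samples and 14.3 TPM in resting samples. The Bcat1 to Bcat2 ratio had a median of 2.75 (0.208 to 8.74) in lymphomas, 3.65 (3.40 to 4.49) in LPS samples and 0.162 (0.116 to 0.266) in resting samples.

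Cth, cystathionine gamma-lyase, which makes cysteine from methionine-derived cystathionine (chr3:157894248-157925077, minus strand), was at 16.8 (wt), 14.9 (cr), 16.3 (co) and 15 TPM (hv) in LPS samples, against 0.323 (wt), 0.484 (cr), 0.177 (co) and 0.415 TPM (hv) in resting samples. The LPS values were nearly the same in all genotypes, and the log2FC was 3.64 ± 0.18. Lymphomas fell in between, from 0.159 to 8.22 TPM with a median of 4.13 TPM. 18 of 19 were above every resting sample, and all 19 were below every LPS sample. The log2FC was 1.74 ± 0.40 against resting and −1.90 ± 0.40 against LPS samples.

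Asns, asparagine synthetase, which makes asparagine from aspartate and glutamine (chr6:7675169-7693254, minus strand), was at 85.9 (wt), 86.9 (cr), 112 (co) and 94.3 TPM (hv) in LPS samples, against 1.61 (wt), 18 (cr), 9.95 (co) and 9.19 TPM (hv) in resting samples. LPS values were tight and resting values were not, and the log2FC was 3.47 ± 0.55, between 2.89 and 3.85 over all settings. Among the resting samples the erythroid sum was lowest in the same sample as Asns, at 11750 (wt), 110763 (cr), 56685 (co) and 112522 TPM (hv); its part in the resting levels was not tested. In lymphomas Asns ran from 0 to 47.8 TPM with a median of 17.9 TPM, below every LPS sample in all 19, with a log2FC of −2.97 ± 0.86. Against resting samples 9 lymphomas were above and 3 were below the whole range, the log2FC was 0.49 ± 0.89, and its sign changed between settings (−0.08 to 0.92).

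Several lymphomas had next to no Asns. In the mesenteric node cr lymphoma T1 all 7 Asns transcripts were at 0, where 3 read pairs would have given 0.0881 TPM. The mesenteric node cr lymphoma T6 held 0.341 TPM, the lung hv lymphoma T5 held 0.647 TPM, and the mesenteric node cr lymphoma T20 held 2.00 TPM. The highest were the lung hv lymphoma T14 at 47.8 TPM, the lung co lymphoma T9 at 41.8 TPM and the peripheral node co lymphoma T2 at 38.1 TPM. Low and high lymphomas occurred in the same line, since T5 and T14 are both hv lymphomas of the lung. Of 4 genes on either side of Asns on chromosome 6, none was at 0 in these low lymphomas. C1galt1 was at 30.5 TPM in mesenteric T1, 29.7 TPM in mesenteric T6, 46.8 TPM in lung hv T5 and 42.6 TPM in mesenteric T20, within 16.6 to 80.2 TPM over all lymphomas. Mesenteric T6 and T1 were the lymphomas with the second and the third lowest C1galt1. Mios was at 30.9, 15, 22.6 and 16 TPM in the same lymphomas in that order, Sem1 at 97.9, 60.8, 77.0 and 72.0 TPM, and Sdhaf3 at 5.97, 2.79, 6.05 and 3.03 TPM. Sdhaf3 ran from 2.17 to 6.89 TPM over all lymphomas, and only 1 of them was below mesenteric T6. The same mesenteric T1 lymphoma held the highest Bcat1 of all (124 TPM) and the highest Slc7a5 of all lymphomas (50.9 TPM), so a low level of Asns did not go with low levels of these genes there.

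**Figure D3:**
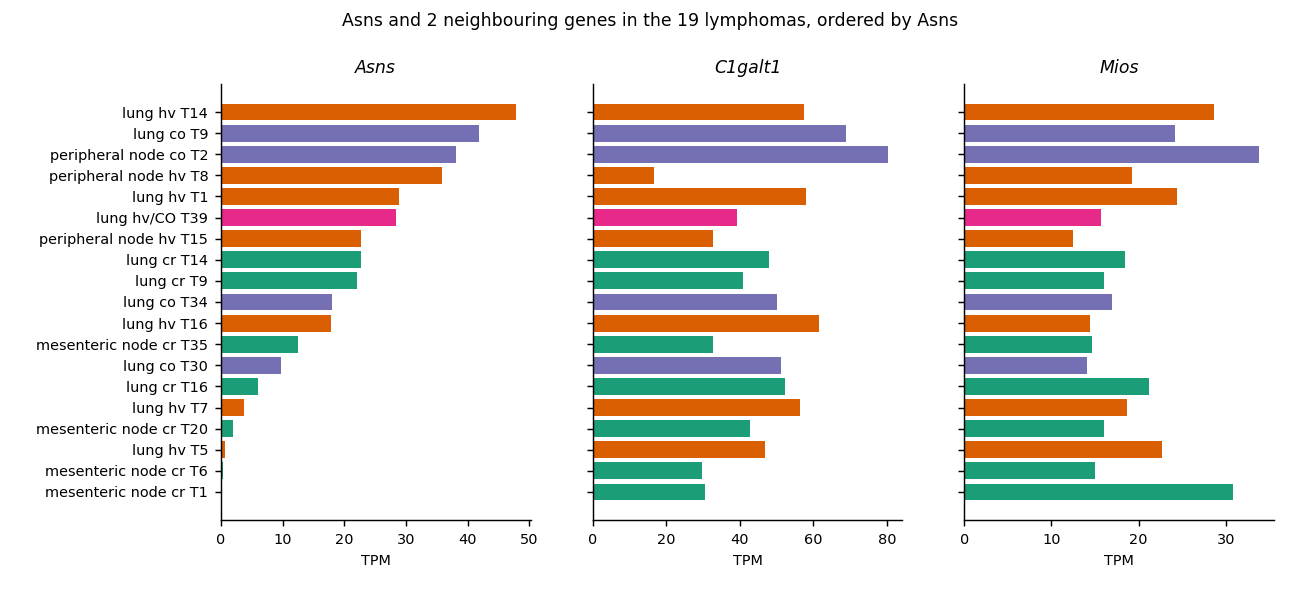
TPM of Asns and of its neighbours C1galt1 and Mios in each of the 19 lymphomas, ordered by Asns from the lowest at the bottom (0 TPM) to the highest at the top (47.8 TPM); the lymphoma of unclear line is in pink. Green bars are cr, orange hv and purple co lymphomas. The neighbours stay at 12.4 TPM or more in every lymphoma.

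Atf4, the transcription factor itself (chr15:80255184-80257540, plus strand), was abundant everywhere. It was at 320.3 (wt), 147 (cr), 270.4 (co) and 248 TPM (hv) in LPS samples, against 229.8 (wt), 174 (cr), 234 (co) and 198 TPM (hv) in resting samples. The ranges overlapped, and the log2FC was 0.19 ± 0.23. The LPS cr sample, which was the lowest, was also the library with 18.6% Gm10800. Lymphomas ran from 140.2 to 301 TPM with a median of 189.7 TPM, with a log2FC of −0.08 ± 0.17 against resting samples whose sign changed between settings (−0.22 to 0.04), and −0.27 ± 0.19 against LPS samples.

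Ddit3, which encodes CHOP, a partner of C/EBP proteins that is linked to cell death in lasting stress (chr10:127290774-127296288, plus strand), went the other way from Asns and Cth in LPS samples. It was at 20.3 (wt), 5.94 (cr), 8.88 (co) and 7.65 TPM (hv) in LPS samples, against 89.0 (wt), 55.1 (cr), 54.2 (co) and 48.0 TPM (hv) in resting samples. The groups did not overlap, the wt sample was the highest in both, and the log2FC was −2.52 ± 0.34. Lymphomas ran from 13.6 to 74.3 TPM with a median of 26.3 TPM. 16 of 19 were below every resting sample and 12 of 19 were above every LPS sample, with a log2FC of −1.05 ± 0.35 against resting and 1.47 ± 0.37 against LPS samples.

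Differences between lines and sites of the lymphomas were not used to choose the genes and were tested in 18 lymphomas, with line and site in 1 model. 9 of the 10 genes passed the filter, and none of the 9 passed the threshold in any of 5 comparisons (limma, adjusted p under 0.05). Of 12480 genes tested, 0% passed for hv against cr, co against cr, co against hv and mesenteric node against lung, and 0.0160% (2 genes) passed for peripheral node against lung. Without the peripheral node hv lymphoma T15, which had the highest lung epithelium markers, no gene passed in any of the 5. Without adjustment 170, 337, 393, 209 and 628 genes were under 0.05 in these comparisons. 3 of the results for the 9 genes were under 0.05 without adjustment. Ddit3 held 13.6, 16, 16.3 and 24.6 TPM in the 4 co lymphomas, a median of 35 TPM (17.9 to 49.3) in hv lymphomas and a median of 43.3 TPM (16.9 to 74.3) in cr lymphomas. Its log2FC was −1.40 ± 0.45 for co minus cr (limma p = 0.00602, adjusted p = 0.998) and −0.82 ± 0.36 for co minus hv (limma p = 0.0358, adjusted p = 1). Asns held 0, 0.341, 2.00 and 12.5 TPM in the 4 mesenteric node lymphomas, against a median of 20 TPM (0.647 to 47.8) in the 12 lung lymphomas. With the line taken into account the log2FC was −2.53 ± 1.04 (limma p = 0.0270, adjusted p = 1). All 4 mesenteric node lymphomas are cr, so site is separated from line by the 3 lung cr lymphomas alone. In the labels these 3 have names in a joined style and the 4 mesenteric node ones names in a separated style. Within cr lymphomas, site and name style therefore cannot be told apart. None of these results held after adjustment, and with this many samples a difference that misses the threshold is not shown to be absent.

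Among the 19 lymphomas, 45 pairs of the 10 genes were correlated on log2(TPM + 1), and 2 pairs passed after adjustment by Pearson's r and 1 by Spearman's rho. Bcat1 and Slc7a5 were high in the same lymphomas, with r = 0.71 (permutation p = 0.00077, adjusted p = 0.0346) and rho = 0.76 (permutation p = 0.00036, adjusted p = 0.0162). Without the 2 lymphomas farthest from the median of Bcat1, r was 0.64. Lymphoma names come in 2 styles in the labels, and r was 0.51 in the 9 with joined and 0.82 in the 10 with separated names. Within hv lymphomas it was 0.85 and within cr lymphomas 0.72, and the 4 co lymphomas were too few for a value. Bcat1 and Slc7a11 ran in opposite directions, with r = −0.66 (permutation p = 0.00219, adjusted p = 0.0493), and rho = −0.61 did not pass (permutation p = 0.0068, adjusted p = 0.153). Without the 2 farthest lymphomas this r was −0.57, it was −0.64 and −0.71 within joined and separated names, and −0.35 and −0.54 within hv and cr lymphomas. The call of this pair was lost with median-of-ratios scaling (adjusted p = 0.0686) and with rescaling without repeat-like and haemoglobin genes (adjusted p = 0.0893, both permutation), whereas Bcat1 and Slc7a5 passed in both. Slc7a11 here is mostly the retained-intron transcript. Summed B-cell markers were lower in lymphomas with more Bcat1 (rho = −0.67) and higher in those with more Slc7a11 (rho = 0.57), and their part in the relation was not tested. No pair of Asns with the other 9 genes passed (r between −0.32 and 0.29). Its r differed in sign between joined and separated names with Bcat1 (0.66 and −0.60, pooled −0.19) and with Slc7a5 (0.62 and −0.62, pooled −0.16). Atf4 with Ddit3 gave r = 0.29 (permutation, adjusted p = 0.621).

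Myc, the gene carried by the transgene, was at 78.8 to 362 TPM in lymphomas, 55.0 to 155 TPM in LPS samples and 89.0 to 185 TPM in resting samples. The wt samples, which lack the transgene, held the highest resting value and the lowest LPS value. Transcripts of the transgene and of the mouse's own Myc gene were not told apart. None of the 20 relations of the 10 genes with Myc or with the mean level of 16 S phase genes passed after adjustment by r or rho, and 2 were under 0.05 without it by r, both with S phase genes. Cth gave r = 0.60 (permutation p = 0.00705, adjusted p = 0.141) and Bcat1 r = 0.51 (permutation p = 0.0243, adjusted p = 0.243). Within joined and separated names these were 0.46 and 0.61 for Cth and −0.19 and 0.82 for Bcat1.

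**Figure D4:**
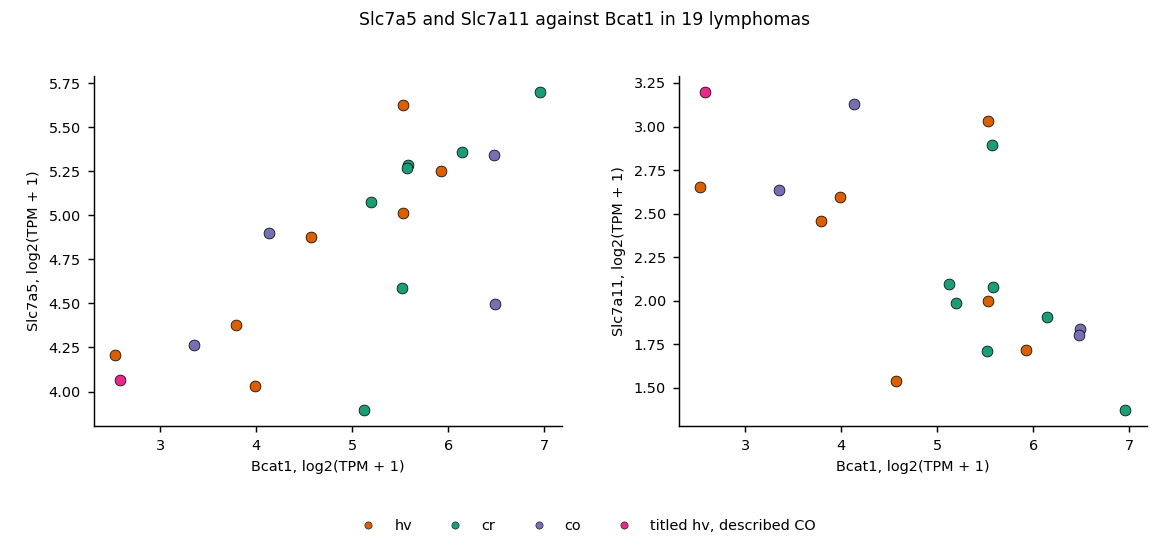
Slc7a5 (left) and Slc7a11 (right) against Bcat1 in 19 lymphomas, each axis as log2(TPM + 1) and each point a lymphoma coloured by line. Slc7a5 is high where Bcat1 is high (r = 0.71), and Slc7a11 is low there (r = −0.66).

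The genes whose pattern over the 19 lymphomas was most like each of 4 of these genes were found among 8452 genes with a mean of 5 TPM or more. For Bcat1 they were Hmga1, a chromatin architectural protein (rho = 0.96, 75.9 to 406 TPM), Ybx3, an RNA-binding protein (rho = 0.87), and Slc16a1, the lactate transporter MCT1 (rho = 0.87). For Slc7a5 they were Ybx3 (rho = 0.88), Nob1, a ribosome assembly nuclease (rho = 0.86), and Hmga1 (rho = 0.85). For Asns the best values were lower, with Cstf2t (rho = 0.75), Nudt7 (rho = 0.67) and Panx1 (rho = 0.66). For Slc7a11, here mostly the retained-intron transcript, they were Zfp488 (rho = 0.97), Sik2 (rho = 0.95) and Lpl, lipoprotein lipase (rho = 0.94). These are the highest of many values and are given as a description. Zfp488, Sik2 and Lpl were also higher in lymphomas with higher summed B-cell markers (rho = 0.53, 0.56 and 0.63). Hmga1 was lower there (rho = −0.64), and the part of the markers was not tested.

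The surrounding pathway was read from 8 lists with 164 genes that are none of the 10, and from a list of S phase genes. In LPS samples 62 of the 151 genes of the 8 lists that passed the filter on low values rose and 37 fell against resting samples (limma, adjusted p under 0.05). Of all genes tested 25.2% rose and 33.0% fell. The median log2FC of the lists was 0.31 and that of all genes −0.16. In lymphomas 44 of 155 rose and 17 fell against resting samples, where 14.5% and 17.4% of all genes did, with a median of 0.25 and of −0.06 over all genes. Against LPS samples 8 of 154 were higher and 37 lower in lymphomas, where 5.27% and 8.56% of all genes were, with a median of −0.19 and of 0.03 over all genes. This count fell to 25 to 39 genes when 1 LPS sample was left out, and to 18 without the 4 libraries above 1% Gm10800. S phase genes moved with the lists: 16 of 16 were higher in LPS and 14 of 16 in lymphoma than in resting samples, and 3 of 16 were lower in lymphoma than in LPS samples (1 without the wt LPS sample or without the libraries above 1% Gm10800). Their part in the lists' differences was not tested. The shares of all genes given here also apply to the counts of each list below.

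Aminoacyl-tRNA synthetases, which load amino acids onto tRNAs, had calls in 1 direction in each comparison. 18 of 20 rose and none fell in LPS samples (median log2FC 1.34), 16 of 20 rose and none fell in lymphomas against resting samples (0.67), and 12 of 20 were lower and none higher in lymphomas than in LPS samples (−0.69). Gars, the glycine enzyme, was at 181 ± 27.5 TPM in LPS samples and 38.9 ± 4.74 TPM in resting samples (SD, n = 4 each). Its log2FC was 2.19 ± 0.18 (limma, adjusted p = 1.7e-06), and Tars and Lars followed with 2.01 ± 0.18 and 1.81 ± 0.19. In lymphomas Gars averaged 94.1 ± 28.7 TPM (SD, n = 19), a log2FC of 1.20 ± 0.22 against resting samples. Against LPS samples Nars, Cars and Mars had the lowest values, between −1.18 and −1.07. The count against resting samples was 11 to 15 when 1 resting sample was left out (11 without hv). The count against LPS samples was 7 without the libraries above 1% Gm10800 and 9 to 14 when 1 LPS sample was left out.

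Among other targets of ATF4, 12 of 20 that passed the filter rose and 3 fell in LPS samples (median log2FC 1.81). Psat1, a serine synthesis enzyme, was at 191 ± 37 TPM in LPS samples and 18.4 ± 2.1 TPM in resting samples, with a log2FC of 3.29 ± 0.19 (limma, adjusted p = 1.9e-07). Mthfd2, a mitochondrial folate enzyme, and Chac1, which breaks down glutathione, followed with 2.75 ± 0.29 and 2.60 ± 0.37. Chac1 averaged 0.254 TPM in resting samples and needed its LPS values to pass the filter on low values. The 3 that fell were Ppp1r15a, Cebpb and Atf3. Ppp1r15a (GADD34), which lets eIF2 recover, was at 22.4 ± 3.4 TPM in LPS samples and 325 ± 91 TPM in resting samples (log2FC −3.77 ± 0.21, limma, adjusted p = 1.9e-07), Cebpb had −1.09 ± 0.18, and Atf3 had −1.68 ± 0.61. The Atf3 call (limma, adjusted p = 0.0451) was lost with genotype as a replicate block (adjusted p = 0.0930), without the filter (0.0501), without the libraries above 1% Gm10800 (0.388) and without any 1 of 6 of the 8 samples, the exceptions being LPS wt and resting co. In lymphomas 9 of 20 rose and 2 fell against resting samples (median 0.74), led by Phgdh at 315 ± 120 TPM in lymphomas and 83.4 TPM in resting samples (1.84 ± 0.28), Psat1 (1.82 ± 0.33) and Shmt2 (1.52 ± 0.26). Ppp1r15a and Atf3 fell again, by 3.08 and 2.83 on the log2 scale, and the Atf3 call was lost without the libraries above 1% Gm10800 or without the wt, cr or hv resting sample. The 11 calls became 7 to 9 when 1 resting sample was left out (7 without hv). Against LPS samples 11 of 21 were lower and none higher in lymphomas (median −0.90), led by Trib3, a target induced by stress, at 0.708 ± 0.596 TPM in lymphomas and 6.52 TPM in LPS samples (−2.04 ± 0.30), Chac1 (−1.84 ± 0.38) and Mthfd2 (−1.53 ± 0.25). The 11 became 7 to 9 when 1 LPS sample was left out (7 without wt), and 6 without the libraries above 1% Gm10800.

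Of the other amino acid transporters, 4 of 19 rose and 9 fell in LPS samples (median log2FC −0.40). Slc1a4, which carries alanine, serine and cysteine, was at 8.64 ± 2.05 TPM in LPS samples and 0.388 ± 0.102 TPM in resting samples, a log2FC of 2.77 ± 0.21 (limma, adjusted p = 9.9e-07), and Slc7a6 and Slc7a1 had 0.85 ± 0.19 and 0.75 ± 0.18. Slc1a4 was under 1 TPM in all resting samples, so against them it passed the filter on low values through the other group alone. Slc38a5, Slc43a1 and Slc6a9 fell by 2.55, 2.49 and 2.26 on the log2 scale, in the same direction as the erythroid markers, whose part was not tested. Slc38a5 averaged 0.157 TPM in LPS samples and passed the filter through its resting values alone. In lymphomas 2 of 20 rose (Slc1a4 by 1.53 ± 0.36 and Slc7a6 by 0.81 ± 0.27) and 6 fell against resting samples, with the lowest values in Slc43a1 (−3.72 ± 0.86), Slc6a9 (−2.99 ± 0.45) and Slc16a10 (−2.84 ± 0.36); 5 of these 8 calls were left without the wt resting sample, and Slc7a6 was then no longer called (limma, adjusted p = 0.0971). Against LPS samples 1 of 19 was higher (Slc43a2, 0.85 ± 0.25) and 2 were lower (Slc1a4, −1.24 ± 0.36, and Slc16a10, −0.86 ± 0.29), and none of the 3 passed when the libraries above 1% Gm10800, or the wt, co or hv LPS sample, were left out. The Slc16a10 call was also lost without the peripheral node hv lymphoma T15 (limma, adjusted p = 0.0559).

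Of the eIF2 kinases, eIF2 and its exchange factor eIF2B, 7 of 16 rose and 5 fell in LPS samples. The subunits Eif2s1, Eif2b1 and Eif2b3 rose by 1.70 ± 0.19, 1.69 ± 0.20 and 1.56 ± 0.20. The haem-controlled kinase Eif2ak1 and the endoplasmic reticulum kinase Eif2ak3 both fell by 1.31, and Impact, which restrains the amino acid sensor GCN2, fell by 1.15. The fall of Eif2ak1 had the same direction as that of the erythroid markers, whose part was not tested. In lymphomas 6 rose and 4 fell against resting samples, with Eif2s1 (1.14 ± 0.23), Eif2b1 (1.12 ± 0.19) and Eif2b5 (0.96 ± 0.18) up and Impact (−1.35 ± 0.39), Eif2ak2 (−1.16 ± 0.25) and Eif2ak3 (−1.02 ± 0.28) down. Without the wt resting sample Impact and Eif2ak3 were no longer called (limma, adjusted p = 0.113 and 0.0852). Against LPS samples 1 was higher, Eif2ak4, which encodes GCN2 (0.74 ± 0.19), and 4 were lower, led by Eif2s3x (−1.22 ± 0.21). 1 of these 5 calls was left without the libraries above 1% Gm10800 and 2 without the co or the hv LPS sample, and the Eif2ak4 call was lost without the cr LPS sample (limma, adjusted p = 0.0694).

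Enzymes of the breakdown of branched-chain amino acids, namely Bcat2 and those downstream, had calls in both directions in LPS samples. 5 of 20 rose and 6 fell, near the 25.2% of all genes that rose and the 33.0% that fell. Auh, Dld and Acat1 rose by 1.0 ± 0.20, 0.93 ± 0.18 and 0.88 ± 0.19, while both E1 subunits of the branched-chain ketoacid dehydrogenase fell, Bckdha by 0.93 and Bckdhb by 0.84, as did its phosphatase Ppm1k, by 0.86. In lymphomas 2 of 20 (Hibch and Mut) rose against resting samples, by 0.50 ± 0.19 and 0.46 ± 0.16, and neither was called without the wt, cr or hv resting sample. Bckdha was the 1 gene of the list that differed between lymphoma and LPS samples, at 36.6 ± 10.1 TPM in lymphomas (SD, n = 19) and 12.9 ± 1.1 TPM in LPS samples (SD, n = 4). Its log2FC was 1.38 ± 0.22 (limma, adjusted p = 7.7e-05).

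In the cysteine and glutathione list, which surrounds Cth and Slc7a11, 5 of 16 rose and 4 fell in LPS samples. Ahcy, which makes the homocysteine that feeds cystathionine, rose by 2.76 ± 0.28, and Txnrd1, thioredoxin reductase, by 1.82 ± 0.19. Hmox1 and Gpx1 fell by 2.41 and 2.37, in the same direction as the macrophage and erythroid markers, whose part was not tested. The Hmox1 call was lost without LPS wt, LPS co, resting cr or resting hv (limma, adjusted p 0.0579 to 0.0804). In lymphomas none of 17 rose and 4 fell against resting samples, led by Hmox1 (−4.03 ± 0.51). Against LPS samples 6 of 18 were lower and none higher, with Gsr at 2.85 ± 2.39 TPM in lymphomas and 16.9 TPM in LPS samples (−2.41 ± 0.39), Nqo1 (−1.79 ± 0.20) and Txnrd1 (−1.73 ± 0.29), and 2 of these calls were left without the libraries above 1% Gm10800, 2 without the co LPS sample and 3 without the hv one. Nqo1 averaged 0.146 TPM in lymphomas and needed its LPS values to pass the filter on low values. In the list of amino acid sensing by mTORC1 5 of 27 rose and 8 fell in LPS samples. Of all genes 25.2% rose and 33.0% fell there. Sesn1 and Sesn3 were down by 2.45 and 1.48 and Fnip2 by 2.27. Fnip2 averaged 0.401 TPM in LPS samples and needed its resting values to pass the filter. In lymphomas 5 of 28 rose and 1 (Fnip2, by 2.21) fell against resting samples, and the 6 calls became 10 with median-of-ratios scaling and 3 to 5 when 1 resting sample was left out (3 without cr or hv). Against LPS samples 3 of 26 were higher in lymphomas (Sesn1, 1.56 ± 0.36, Flcn, 0.73 ± 0.22, and Rragc, 0.65 ± 0.21). The Flcn and Rragc calls were lost without any 1 LPS sample, and none of the 3 was called without the libraries above 1% Gm10800.

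Among enzymes of glutamine, aspartate, proline and arginine 6 of 13 rose and 2 fell in LPS samples. Got2 and Got1, which make the aspartate used by ASNS, rose by 2.07 ± 0.19 and 1.18 ± 0.18, Pycrl by 1.55 ± 0.20, and Glul, glutamine synthetase, fell by 1.23. In lymphomas 4 of 14 rose and none fell against resting samples. Ass1, argininosuccinate synthase, which makes the precursor of arginine, was at 140 ± 68 TPM in lymphomas, 41.8 TPM in LPS samples and 19.6 TPM in resting samples. It was higher in lymphomas than in resting samples by 2.87 ± 0.39 (limma, adjusted p = 4.3e-06) and than in LPS samples by 1.81 ± 0.40 (limma, adjusted p = 0.00303), unlike Asns, which was lower in lymphomas than in LPS samples. Prodh was also higher than in LPS samples (1.80 ± 0.57), and Got2 and Got1 were lower (−1.04 ± 0.23 and −0.85 ± 0.28). Of these 4 calls 1 was left without the libraries above 1% Gm10800, the Got1 call was lost without the peripheral node hv lymphoma T15 (limma, adjusted p = 0.0515), and the Prodh and Got1 calls were lost without any 1 LPS sample (limma, adjusted p 0.0550 to 0.157 and 0.0655 to 0.154).

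**Figure D5:**
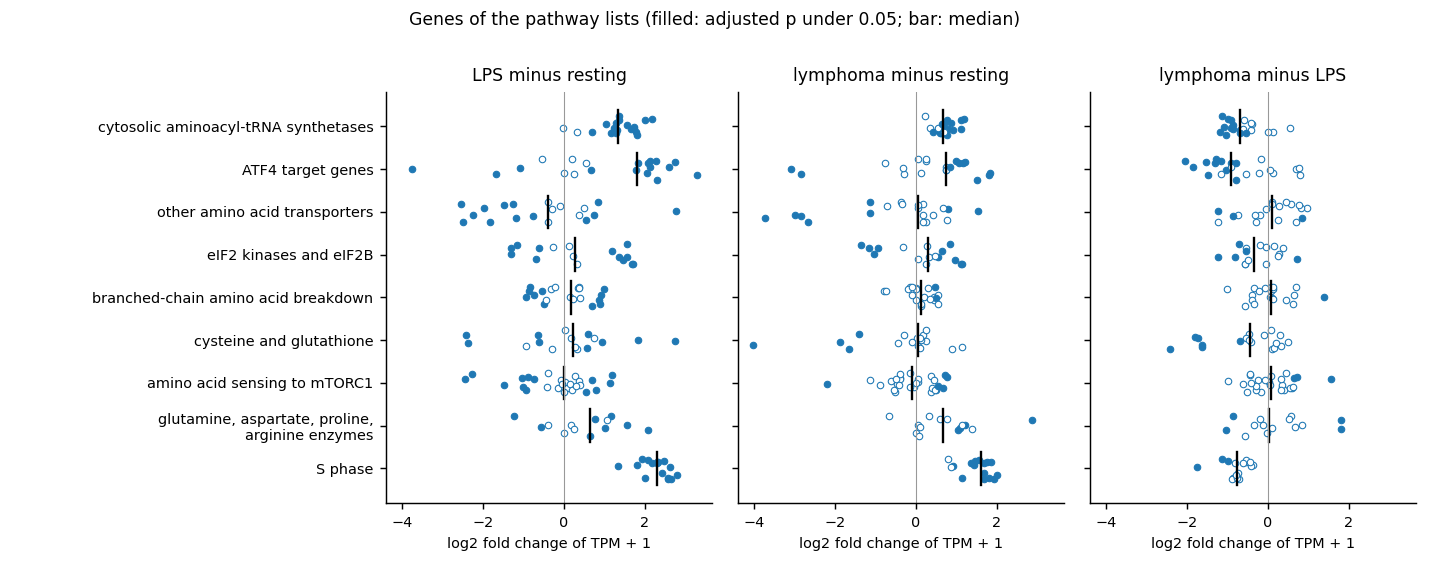
Log2 fold changes of TPM + 1 for genes of the 8 pathway lists and of the S phase list in 3 comparisons; each point is a gene, filled where the adjusted p was under 0.05, and bars are list medians. Synthetases and most ATF4 targets sit to the right in LPS minus resting (medians 1.34 and 1.81) and to the left in lymphoma minus LPS (−0.69 and −0.90).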

How the data were processed

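RNA from all 27 samples, freed of ribosomal RNA, was sequenced from both ends with a stranded kit, per the labels' protocols. The tools were FastQC and kallisto 0.43 and the build GRCm38 (mm10), per the submitters' processing notes. The authors' deposited table held TPM for 88198 transcripts, which were summed to 30735 genes; 740 had no symbol. No source used here gives kallisto's strand setting, so overlapping genes may share reads. Depth came from steps in TPM times effective length (60.7 to 75.6% of low values whole within 0.02 reads), and the floor of 3 read pairs covers counting error only.

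Each fit kept genes reaching a TPM of 1 in 4 samples or more and used log2(TPM + 1) in limma 3.58.1 (trend, robust; R 4.3.3; the package data.table, version 1.17.8) and Benjamini-Hochberg adjustment at 0.05, tested on simulated data. Correlations used two-sided permutation tests with 100000 resamples, adjusted over 45 and 20 relations. Transcript types came from GENCODE M21. Alternatives were pseudocount 0.1, no filter, median-of-ratios scaling, scaling without repeat-like and haemoglobin genes, left-out libraries, genotype as a block, name style, coding transcripts, and the lymphomas without T15 (the last 2 chosen after seeing the data). Other steps ran in Python 3.11.15 with scipy 1.17.1, numpy 2.4.6, matplotlib 3.10.9 and pandas 2.3.3. The genes and lists were chosen with earlier results of these data known. Named were the 10 genes, Myc, up to 3 called genes per list, direction and comparison, 3 most alike genes for 4 of the 10, and transcripts with 5% or more of a gene's TPM; C1galt1, Mios, Sem1, Sdhaf3, Bcat2, Slc7a1 and markers were named after their values were seen. The lymphoma of unclear line stayed out of line and site fits.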

Additional observations from a re-analysis of the deposited data

Results flagged for a closer look

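The highest or lowest sample stood apart from the rest of its group in 5 of 50 groups examined, where chance alone gives about 1 in 20. Bcat1 was at 124 TPM in the mesenteric node lymphoma T1, the highest of the 7 cr lymphomas, while the others lay between 33.9 and 69.8 TPM. Slc7a3 was at 12.2 TPM in the LPS cr sample, against 25.3 to 25.9 TPM in the other LPS samples, and this is the library with 18.6% of its TPM on Gm10800. Slc7a3 was at 4.48 TPM in the lung lymphoma T14 among hv lymphomas and at 1.63 TPM in the mesenteric node lymphoma T35 among cr lymphomas. Slc7a11 was at 6.43 TPM in the mesenteric node lymphoma T6, the highest of the cr lymphomas and a library with 3.08% Gm10800.

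Slc1a5 was higher in LPS than in resting cells of wt mice, by 0.37 on the log2 scale, and lower in the 3 transgenic genotypes (−0.81 in cr, −0.59 in co and −0.28 in hv). With 1 pair per genotype this difference was not tested, and on the coding transcript all 4 LPS samples were above all resting samples.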

How the results depend on the processing

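Signs of the log2 fold changes between groups held over all settings with all transcripts summed except for Slc3a2 (LPS against resting), Slc1a5, Asns and Atf4 (lymphoma against resting) and Slc7a11 (lymphoma against LPS, −0.48 to 0.30). With coding transcripts alone, an alternative chosen after seeing the data, Slc1a5 and Slc7a11 in LPS against resting turned to 0.94 and 0.43. The median of all genes in LPS against resting moved from −0.16 to −0.03 with median-of-ratios scaling and to −0.30 after rescaling without repeat-like and haemoglobin genes. The share of calls that were higher there was 43.3%, 50.5% and 36.4%, and 55.5% without libraries above 1% Gm10800. In lymphoma against resting that share was 45.4%, and 31.9% after rescaling.

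Leaving out the libraries above 1% Gm10800 gave 2746 genes in place of 4229 for lymphoma against resting, 433 in place of 1782 for lymphoma against LPS, and 18 in place of 45 pathway list genes. Without the wt sample these were 2749, 1103 and 29. Leaving out 1 sample at a time gave 5874 to 7070 genes (88 to 98 list genes) for LPS against resting, 2749 to 3222 (44 to 53) for lymphoma against resting, 821 to 1392 (25 to 39) for lymphoma against LPS, 0 to 2 for co against cr and 0 to 1 for co against hv. In lung lymphomas with joined names 1, 4 and 3 genes passed for hv against cr, co against cr and co against hv. Without the filter 1 passed for co against hv and 5 for peripheral node against lung, where 4 passed without libraries above 1% Gm10800 and 0 with name style in the fit or without T15, which was chosen after seeing the data. Median-of-ratios scaling gave 5 correlated pairs and 2 relations with Myc or S phase genes, and rescaling gave 1 pair. With genotype as a replicate block 7250 genes passed in place of 6981 and 101 list genes in place of 99; the labels tie these samples by genotype and do not say whether they share a mouse. The causes were not tested. Among further values of named genes under the alternatives, 1697 kept their side of the threshold or stayed within the spread, 152 lost their call and 12 moved. TPM near the floor of 3 read pairs limits Slc7a3, coding Slc7a11 and low Asns.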
